A study of Saccharomyces cerevisiae with 4 samples.

Results

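The 8 genes described here encode the enzymes that remove joint DNA molecules after homologous recombination in budding yeast: YEN1, MUS81, MMS4, SLX1 and SLX4, whose products cut such molecules, and SGS1, TOP3 and RMI1, whose products take them apart without cutting them through. They were chosen by name among the 5539 named genes of the arrays, starting from YEN1, whose ratio was already known from these same 4 arrays. The values of the 8 genes are therefore a description and carry no test. All 8 had a probe in the platform annotation, MMS4 had 2 probes and the others had 1. The study put RNA of abf1-1 mutant cells in channel 1 and RNA of wild type cells in channel 2 of each of 4 arrays. The abf1-1 allele is temperature-sensitive and alters Abf1, an essential DNA-binding protein of many promoters, origins of replication and silencers. Per the labels, both strains grew in YPAD, a rich medium, at 30 °C until the OD600 was between 1.0 and 1.2, received as much YPAD again, warmed to 42 °C, and spent 45 min at 36 °C before RNA was taken. The wild type thus went through the same shift in temperature, and each ratio sets a mutant culture against a wild type culture. The sources used here do not give the strain background, the dyes or whether each array had its own cultures.

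When a broken or stalled chromosome is repaired from its partner, the 2 DNA molecules become linked by Holliday junctions, which must be removed before the chromosomes can part. In the dissolution route the helicase Sgs1 and the topoisomerase Top3, with their partner Rmi1, move a pair of junctions together and unlink the strands, which gives no crossover. In the resolution route nucleases cut the junction: Mus81 with Mms4, Slx1 with its scaffold Slx4, and Yen1, which in dividing cells is held inactive by the cyclin-dependent kinase until the phosphatase Cdc14 releases it late in mitosis.

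Values are log ratios of the channels, taken as log2, and each array was centred on its median. Neither the labels nor the table say which strain is in the numerator, so signs are given as deposited, and a negative ratio is not called lower in the mutant. A ratio says nothing of how abundant a transcript is, and no spot brightness came with the ratios. The arrays did not vary alike: over probes, Pearson's r was 0.742 between arrays 1 and 3 and 0.864 between arrays 2 and 4, and lay between -0.221 and 0.050 for arrays of different pairs. These correlations are over probes, which are not independent replicates, and the pairs were seen in the data and are not named in the labels. Arrays 1 and 3 are called the odd arrays below and arrays 2 and 4 the even arrays. Values are given for every array, and means also within each pair.

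YEN1 (YER041W), the gene of the late-acting resolvase, had a log2 ratio of -1.06, -2.21, -1.11 and -1.93 on arrays 1 to 4. All 4 values were negative, and the 2 lowest were on the even arrays. The mean was -1.58 ± 0.58 (SD, n = 4), which is a 2.99-fold difference between the strains, with a mean of -1.08 over the odd arrays and of -2.07 over the even arrays. As a fold difference the single arrays ranged between 2.08 on array 1 and 4.64 on array 2. Over all 6189 features (named genes and unnamed probes) 6 had a more negative mean. This place rests on the sign of the even arrays as deposited: with those signs turned the mean of YEN1 was 0.49, limma did not call it, and 60 features had a more positive mean. Counted from the most negative ratio of each array, YEN1 stood at place 160, 3, 189 and 4 on arrays 1 to 4. It was thus near the bottom of the even arrays and farther up the order on the odd arrays.

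**Figure D1:**
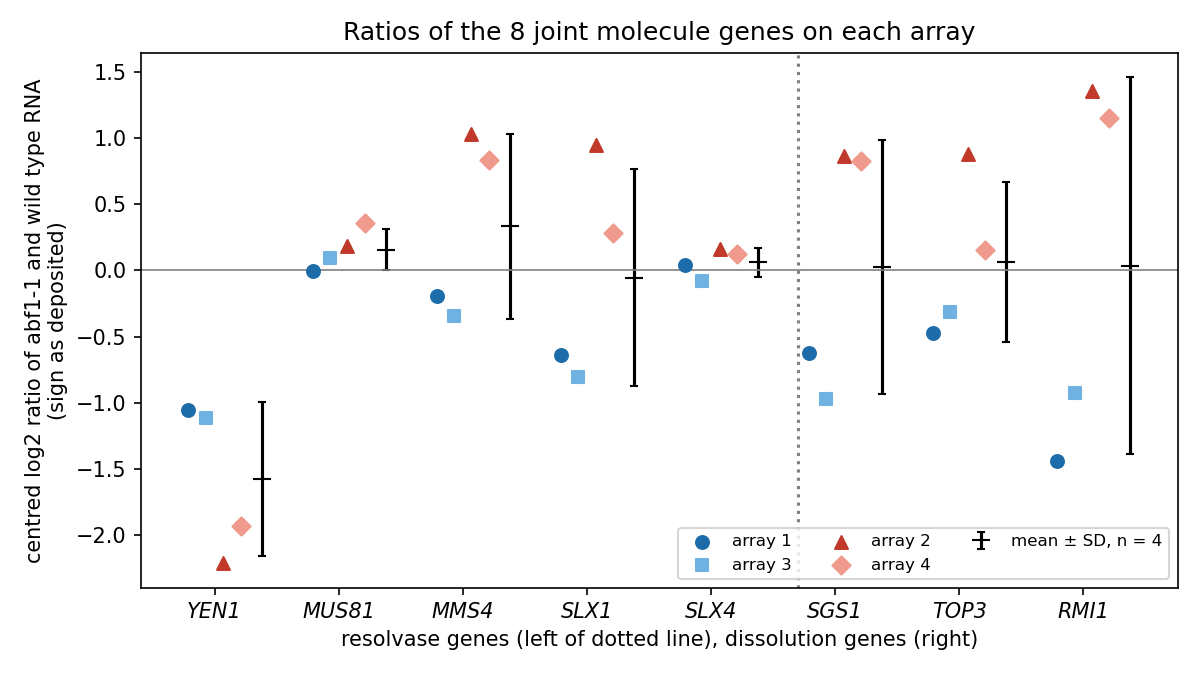
Centred log2 ratio of abf1-1 and wild type RNA, sign as deposited, for each of the 8 genes on each array (blue: odd arrays, red: even arrays), with the mean and SD over 4 arrays in black. YEN1 lies between -2.21 and -1.06 and is negative on every array, and on array 1 RMI1 lies below it at -1.44. RMI1, SGS1, SLX1, MMS4 and TOP3 are negative on the blue and positive on the red arrays.

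MUS81 (YDR386W), which encodes the catalytic subunit of the Mus81-Mms4 nuclease, had -0.01, 0.19, 0.10 and 0.36 on arrays 1 to 4. Its mean was 0.16 ± 0.15 (SD, n = 4), and its largest difference, on array 4, was 1.28-fold. MMS4 (YBR098W), for the regulatory subunit of the same nuclease, had -0.19, 1.03, -0.35 and 0.83, with a mean of 0.33 ± 0.70. Both genes of this nuclease had a positive mean, but MMS4 was negative on the odd arrays (mean -0.27) and positive on the even arrays (mean 0.93), while MUS81 had 0.05 and 0.27 there.

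The 2 probes of MMS4 did not give the same picture. Probe 178 had -0.73, 1.25, -0.66 and 0.99 on arrays 1 to 4, and so changed sign between the pairs of arrays. Probe 182 had 0.35, 0.82, -0.03 and 0.67, and was positive on 3 of 4 arrays. Probe 182 minus probe 178 was 1.09 and 0.63 on the odd arrays, and -0.43 and -0.32 on the even arrays. The size of the difference between the probes averaged 0.62 over the arrays for MMS4, against a median of 0.30 over the 35 genes with 2 probes, of which 3 had a larger one. The gene table lists YBR100W as a second name of MMS4, and which of the probes reads which frame is not stated in the labels or the annotation.

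SLX4 (YLR135W), for the scaffold that activates Slx1, was the member with the smallest spread, with 0.04, 0.17, -0.08 and 0.12 on arrays 1 to 4 and a mean of 0.06 ± 0.11 (SD, n = 4). SLX1 (YBR228W), for the nuclease subunit, had -0.64, 0.95, -0.80 and 0.28, and its mean of -0.05 ± 0.82 was close to 0 because the pairs had opposite signs, -0.72 over the odd and 0.62 over the even arrays. The partners of this nuclease, like those of Mus81-Mms4, thus had 1 gene with ratios within 0.36 of 0 on every array and 1 gene whose sign followed the pair of arrays.

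The genes of the dissolution complex all changed sign between the pairs. SGS1 (YMR190C), for a helicase of the RecQ family, had -0.62, 0.87, -0.97 and 0.83 on arrays 1 to 4. TOP3 (YLR234W), for the type I topoisomerase that passes the strands, had -0.47, 0.88, -0.31 and 0.16. RMI1 (YPL024W), for the subunit that stimulates the other 2, had -1.44, 1.36, -0.93 and 1.15. In each of the 3 genes both negative values were on the odd arrays and both positive ones on the even arrays.

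Their means over 4 arrays were 0.03 ± 0.96 for SGS1, 0.06 ± 0.61 for TOP3 and 0.04 ± 1.43 for RMI1 (SD, n = 4), so the spread between arrays was many times the mean. The mean over the odd arrays was -0.80, -0.39 and -1.18 in that order of genes, and over the even arrays it was 0.85, 0.52 and 1.25. RMI1 had the widest range of the 8 genes over the arrays, 2.80 on the log2 scale, against 1.16 for YEN1 and 0.25 for SLX4.

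By mean ratio, from the most negative to the most positive, the order of the 8 genes was YEN1, SLX1, SGS1, RMI1, SLX4, TOP3, MUS81 and MMS4. With the even arrays' signs turned the order was RMI1 (-1.22), SGS1 (-0.82), SLX1 (-0.67), MMS4 (-0.60), TOP3 (-0.46), MUS81 (-0.11), SLX4 (-0.082) and YEN1 (0.49), so YEN1 stood at the other end. With the signs as deposited, the means of the 7 genes other than YEN1 ran between -0.05 for SLX1 and 0.33 for MMS4, and neighbours in this order differed by less than the SD of at least 1 of them. YEN1 was 1.52 below SLX1, more than the SD of either gene. The genes were chosen starting from YEN1 with its ratio known, so this gap and the differences below are a description. On every array but array 1, where RMI1 had -1.44 against -1.06 for YEN1, YEN1 had the lowest ratio of the 8. Set against all 4 arrays at once, the root mean square difference of the other members from YEN1 lay between 1.74 (SLX4) and 2.37 (RMI1), while the 21 differences among the other 7 members lay between 0.15 (MUS81 and SLX4) and 1.16 (SLX4 and RMI1), with a median of 0.54.

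The arrays were also fitted over all 6189 features with limma, which tests the mean ratio against 0 with 3 residual degrees of freedom, two-sided, and a feature is called at a Benjamini-Hochberg adjusted p below 0.05. Of the 8 genes 1 was called, YEN1, which was known from these arrays when the genes were chosen, against 3.23% of all features (200 features, 85 positive and 115 negative). With a term in the fit that sets the odd against the even arrays the members called were YEN1 and MMS4, 2 of 8, against 32.7% of all features. With the even arrays' signs turned they were RMI1 and SGS1, 2 of 8, against 4.88% of all features. The pair term and the turned signs were set after the split of the arrays into pairs was seen. The 8 genes were chosen with values of these arrays known, so nothing is read from these shares for them. With quantile normalization, and without array 1, 2, 3 or 4, limma called 0 of the 8, with 1 of them, YEN1, at an unadjusted p below 0.05 in each of these fits (its mean was -1.75, -1.37, -1.73 and -1.46 without arrays 1 to 4, and -1.70 with quantile normalization), and nothing is read from these counts for the members. Without array 1, 3 or 4 it called 0 features of the whole table, with 898, 1066 and 752 at an unadjusted p below 0.05. Without array 2 it called 22, with 1016 at an unadjusted p below 0.05. With quantile normalization it called 98, with 1258 at an unadjusted p below 0.05.

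The sign pattern of SGS1, TOP3, RMI1, SLX1 and MMS4, negative on the odd and positive on the even arrays, was common in the whole table. It was held by 5 of the 8 genes, or 62.5%, against 18.0% of all features, and by 4 of 8 where MMS4 is read by probe 182 alone. It was also held by 22 of 82 related genes of recombination and its control, or 26.8%. The opposite pattern, positive on the odd and negative on the even arrays, was held by 0 of the 8 genes and by 16.9% of all features. YEN1 was the 1 gene of the 8 with a single sign on all 4 arrays. Of all features, 16.4% were negative on all 4 and 14.7% were positive on all 4. No test was made of these shares, since the genes were chosen with values of these arrays known.

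**Figure D2:**
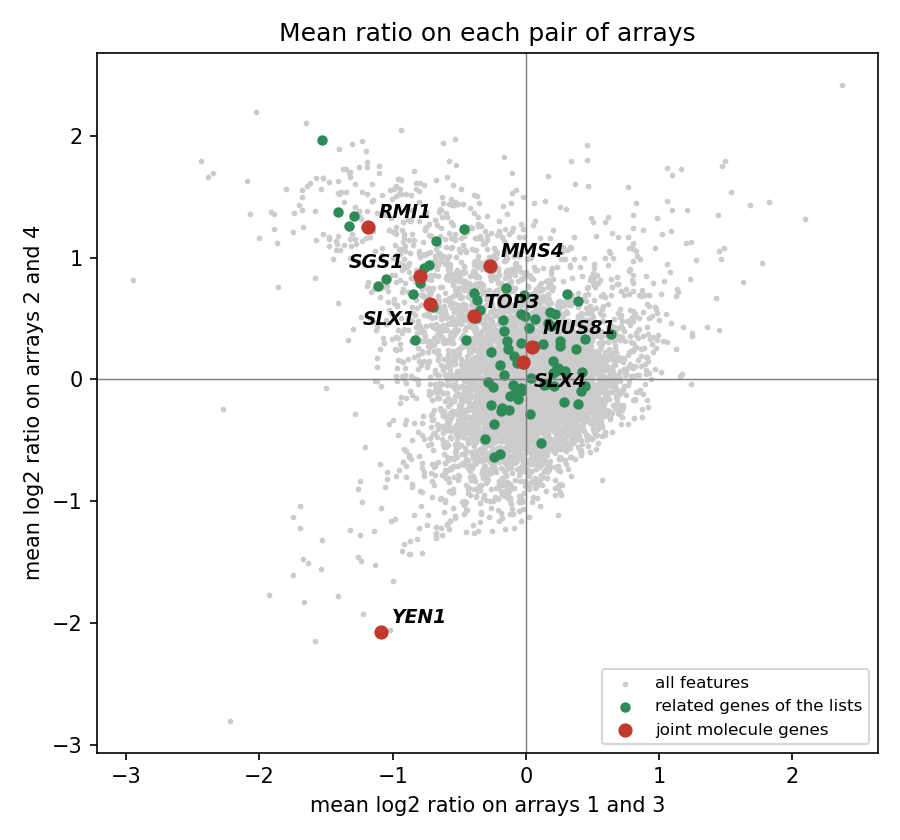
Mean centred log2 ratio on arrays 1 and 3 (horizontal) against that on the even arrays (vertical) for all 6189 features (grey), 82 related genes (green) and the 8 joint molecule genes (red). YEN1 lies at -1.08 and -2.07, in the lower left, while RMI1, SGS1, SLX1, TOP3 and MMS4 lie in the upper left and MUS81 and SLX4 near the centre.

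The difference between the pairs of arrays measures how far a gene follows this split. The mean of the odd arrays minus that of the even arrays was -2.44 for RMI1, -1.64 for SGS1, -1.34 for SLX1, -1.20 for MMS4, -0.91 for TOP3, -0.23 for MUS81, -0.16 for SLX4 and 0.99 for YEN1. The median over the 8 genes was -1.06, against 0.06 over all features. YEN1 and RMI1 stood near opposite ends of the whole table, with 99.0% of features below YEN1 and 1.58% below RMI1.

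This difference went with gene length over the table, with a Spearman's rho of -0.306 across 5535 genes, which share the arrays and are not replicates. In 5 groups of genes by length, its median was 0.26, 0.23, 0.15, 0.01 and -0.20 from the shortest to the longest group. YEN1, at 2280 bases, and SLX4, at 2247 bases, were both in the longest group and differed from each other by more than the medians of the shortest and longest groups did. SGS1, at 4344 bases, was in the longest group too, with -1.64 where the median was -0.20. MUS81, TOP3 and MMS4 were in the second longest group, of median 0.01, with -0.23, -0.91 and -1.20. RMI1, at 726 bases, and SLX1, at 915 bases, were in the second shortest group, and their differences were negative where the median of that group was positive. The part of gene length in the values of the 8 genes was not tested.

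**Figure D3:**
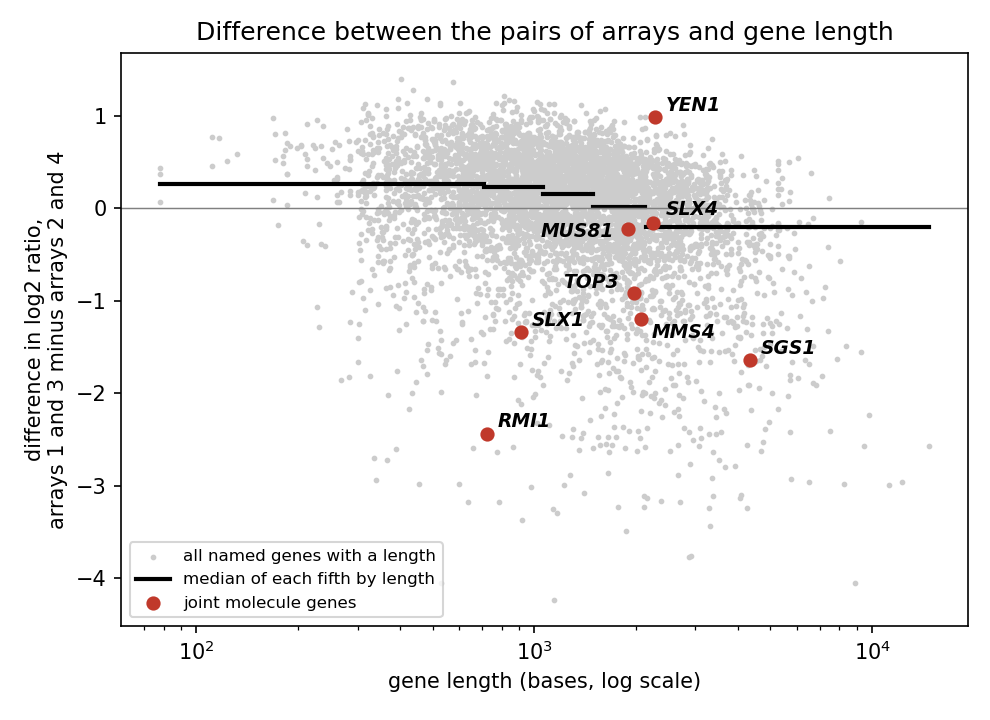
Difference in log2 ratio, odd arrays minus even arrays, against gene length in bases on a log axis, for all named genes with a length (grey) and the 8 joint molecule genes (red), with the median of each of 5 length groups in black. YEN1 lies at 0.99, above the median of -0.20 of its length group, and RMI1 at -2.44, below the 0.23 of its own.

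In 7 lists 82 related genes were examined. Limma called 0 of the 82, against 3.23% of all features, and 13 had an unadjusted p below 0.05 (10 positive, 3 negative), against 20.8% of all features. Their means ran between -0.44 and 0.52 with a median of 0.08, against a median of 0.02 over all features, and 52 were positive and 30 negative. Means much smaller than the single ratios also came from pairs of arrays with opposite signs. RFA1, for the large subunit of the single-strand binding protein, had -0.99, 2.24, -2.07 and 1.69 on arrays 1 to 4. Its mean was 0.22. With the even arrays' signs turned the means of the 82 genes ran between -1.75 (RFA1) and 0.32. With the term for the pairs of arrays 17 of the 82 were called, or 20.7%, against 32.7% of all features. Of these 14 were positive and 3 negative, and 14 of the 17 had the same sign on all 4 arrays. Among the 17 were SRS2, RAD57, ZIP2, SPO11, CCE1, CLB1, CLB6, SMT3, ULS1, SMC6 and KRE29. Below, these genes are given with the adjusted p of the fit without this term. With the even arrays' signs turned, 10 of the 82 were called, or 12.2%, against 4.88% of all features, among them RFA1 (adjusted p 0.0137), the meiotic genes MEK1 (mean -1.29) and HOP2 (-1.32) and the checkpoint gene RAD9 (-1.39). These 4 genes were picked after their values were seen.

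The closest relatives of the resolvases by enzyme family were the nucleases RAD2, RAD27, EXO1 and DIN7, whose products belong with Yen1 to the Rad2 family, and RAD1 and RAD10, whose products form the XPF-type nuclease of excision repair. Limma called 0 of these 6 and 0 had an unadjusted p below 0.05, against 3.23% and 20.8% of all features. RAD2 had the largest mean of the 6, 0.17 ± 0.10 (SD, n = 4), and EXO1, for a nuclease that resects ends and acts in meiotic crossing over, had 0.16 ± 0.38. Of the 6 genes, 4 had the sign pattern of SGS1, against 18.0% of all features. The median difference between the pairs was -0.47 over the 6. CCE1, for the resolvase that cuts Holliday junctions in mitochondria, had 0.59, 0.46, 0.69 and 0.29 on arrays 1 to 4. Its mean of 0.51 ± 0.18 was positive on all 4 arrays, and limma did not call it (adjusted p 0.0858). The topoisomerase genes TOP1 and TOP2 had means between -0.06 and 0.03.

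Of 20 genes of strand exchange and end resection, limma called 0 and 2 had an unadjusted p below 0.05. Over all features these shares were 3.23% and 20.8%. SRS2, for a helicase that counteracts recombination, had -0.29, -0.68, -0.19 and -0.59 on arrays 1 to 4, a mean of -0.44 ± 0.24 (SD, n = 4) with an adjusted p of 0.139. RAD57, for a factor that promotes strand exchange, had 0.31 ± 0.15 with an adjusted p of 0.194. Among 17 genes of meiotic crossovers ZIP2 had 0.52 ± 0.18 and SPO11, for the enzyme that makes the meiotic breaks, 0.51 ± 0.26, with limma's adjusted p at 0.0847 and 0.114. Both were positive on all 4 arrays. Of these 17 genes 0 were called, 4 had an unadjusted p below 0.05 and 8 had the sign pattern of SGS1. Over all features these shares were 3.23%, 20.8% and 18.0%.

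Of 18 cell cycle and checkpoint genes 9 had positive and 9 negative means, with a median of 0.00, and 0 were called and 3 had an unadjusted p below 0.05, against 3.23% and 20.8% of all features. CLB1, for a mitotic cyclin, had -0.41 ± 0.25, and CLB6, for an S phase cyclin, had 0.39 ± 0.08 (SD, n = 4), with limma's adjusted p at 0.169 and 0.108. CDC14, for the phosphatase that switches Yen1 on, had -0.11, and CDC5, for the polo kinase that acts on Mms4, had -0.09. These 2 genes are given for their role and were picked outside the naming rule.

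Of 11 genes for SUMO and ubiquitin factors, SMT3, the gene for SUMO itself, had -0.40 ± 0.19 and ULS1, for a translocase that recognises SUMO, had 0.38 ± 0.99 (SD, n = 4). Limma called neither, with adjusted p at 0.140 and 0.607. Of the 11 genes 0 were called and 2 had an unadjusted p below 0.05, against 3.23% and 20.8% of all features. SLX5 and SLX8 encode the ubiquitin ligase that targets Yen1, and were picked outside the naming rule. SLX8 had 0.11, 0.18, 0.30 and -0.08 on arrays 1 to 4, and SLX5 had -0.39, 0.81, -1.20 and 0.77, so SLX5 alone of the pair had the sign pattern of SGS1. In the Smc5/6 complex, which acts on joint molecules, SMC6 had 0.34 ± 0.44 and KRE29 0.26 ± 0.07 (SD, n = 4). Limma's adjusted p was 0.360 and 0.214. Of the 7 genes of this complex 0 were called and 1 had an unadjusted p below 0.05, against 3.23% and 20.8% of all features.

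**Figure D4:**
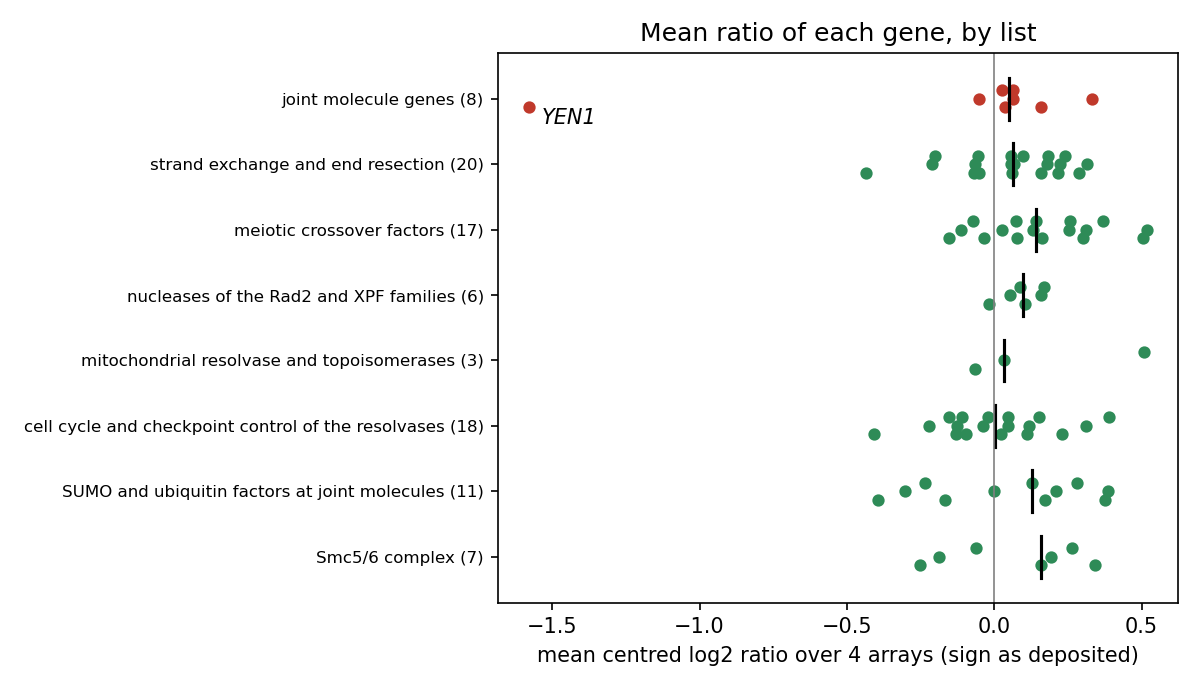
Mean centred log2 ratio over 4 arrays of each gene, sign as deposited, for the 8 joint molecule genes (red) and 7 lists of related genes (green), with the number of genes in brackets and the median of each list as a black bar. YEN1, at -1.58, lies apart from the 82 related genes, which run between -0.44 and 0.52 with the signs as deposited.

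The genes whose ratios were closest to those of YEN1 over the 4 arrays came from other processes. Closeness was measured as the root mean square difference of the 4 ratios over 5531 named genes outside the 8. RPP1A, for a protein of the ribosomal stalk, was nearest at 0.11, with -1.12, -2.14, -0.93 and -1.97 on arrays 1 to 4. SEC53, for phosphomannomutase, was next at 0.15, with -1.18, -2.13, -1.26 and -1.71. Like YEN1, both had their 2 lowest ratios on the even arrays, but they were chosen by their closeness to YEN1 on these same arrays.

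YIP3, for a membrane protein that binds Rab GTPases, followed at 0.33, DSS4, for a factor that acts on the Rab GTPase Sec4, at 0.35, and DUG1, for a dipeptidase, at 0.37. Their means over the 4 arrays were -1.33, -1.59 and -1.86, and each also had its 2 lowest ratios on the even arrays. With 4 arrays, this order rests on few values. Of the other members SLX4 was the closest to YEN1, and 3114 genes outside the 8 were closer.

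**Figure D5:**
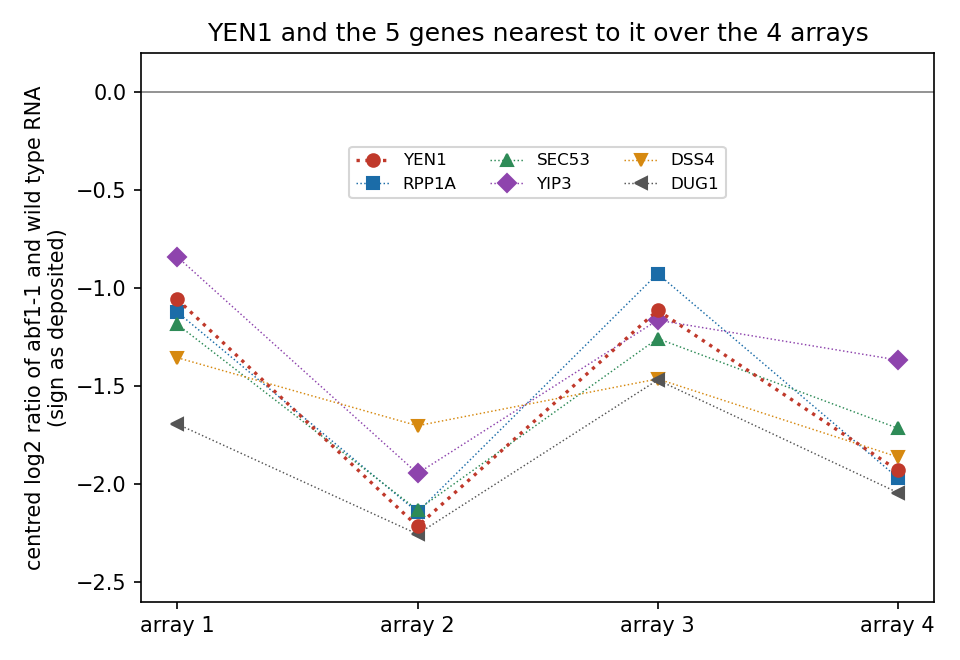
Centred log2 ratio on each array, sign as deposited, for YEN1 (red) and the 5 named genes with the smallest root mean square difference from it. The dotted lines only join the points of 1 gene, since the arrays have no order, and YEN1 and RPP1A differ by 0.11 as a root mean square.

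The genes next to YEN1 on the chromosome had smaller ratios. GLN3 (YER040W), for an activator of nitrogen-regulated genes, lies before YEN1 on the same strand and had -0.16, -0.10, -0.19 and -0.19 on arrays 1 to 4. MXR1 (YER042W), for a methionine sulfoxide reductase, lies after it on the same strand and had -0.60, -0.58, -0.23 and -0.62. Both genes were negative on all 4 arrays, as YEN1 was, and no array of either reached the ratios of YEN1. Their means were -0.16 ± 0.04 and -0.51 ± 0.18 (SD, n = 4), and limma called neither, with adjusted p at 0.408 and 0.0877. With the term for the pairs of arrays, which were read from these same data, limma called MXR1 (adjusted p 0.00591). It did not call GLN3 (adjusted p 0.138). Over the 8 genes 15 of 16 direct neighbours were measured, 0 overlapped a member, and limma called 0 of the 15, against 3.23% of all features. Of the 15, 3 had an unadjusted p below 0.05, against 20.8% of all features, and 6 were called with the term for the pairs of arrays, against 32.7%.

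The neighbours of SLX1 shared its sign pattern, which 18.0% of all features held. MCX1, which diverges from SLX1, had -0.66, 1.78, -1.33 and 1.35 on arrays 1 to 4, and ROT2, on its other side, had -0.20, 0.77, -0.19 and 0.42. For RMI1, with the widest range of the 8 genes, the neighbours did not: SKS1 had 0.64, -0.05, 0.45 and 0.30, and MET12 had -0.50, -0.23, -0.84 and 0.00. These 4 neighbours were picked after their values were seen. No measured neighbour of MMS4, SGS1 or TOP3, the other members with the pattern, held it. A neighbour of SLX4 held it although SLX4 did not.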

How the data were processed

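The log2 ratios are those the authors deposited, 1 per probe and array (6226 probes, 0 missing values). The scale was taken as log2 from the deposited values, which run from -4.30 to 2.67. The sources used here do not give the scanner, background correction, centring or log base. Deposited column medians were -0.01, 0.03, -0.03 and 0.02. Array medians were subtracted and probes of 1 gene averaged, giving 6189 features (5539 named). Names come from the platform annotation (1 gene for 5576 probes, none for 650 and several for 0), updated through the RefSeq table of assembly R64, which also gave gene order and lengths. No member probe held a value shared by many probes of an array.

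Features were fitted with limma 3.58.1 (lmFit, eBayes) in R 4.3.3, intercept only, adjusted over all features. The fit takes the arrays as independent, although arrays of the same pair were correlated. Its p-values set the mean against the spread between arrays, which may be technical. The pair term and the turned signs followed a split seen in these same arrays, so the p-values of those fits may be too small. The fit was also run on simulated arrays drawn independently, without the split into pairs. That run therefore says nothing of the split seen here. Tables and plots used Python 3.11.15, pandas 2.3.3 and matplotlib 3.10.9. Members and lists, recalled from textbook knowledge, were chosen with earlier results of these data known. Of the lists, 2 genes are not reported here. From each list, called genes were to be named, or, with none called, the 2 with the largest mean either way. The 5 genes nearest to YEN1 and its neighbours were also named. The alternatives were uncentred ratios, equal spread, quantile normalization, leaving out each array, turned signs or a term for the pairs of arrays, each pair alone, medians, robust eBayes, array weights, an adjusted p below 0.01, at least 1.5-fold and single probes.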

Additional observations from a re-analysis of the deposited data

Results flagged for a closer look

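Of 29 named genes, 3 had 1 array far from the other 3, with a gap above Dixon's critical value for 4 samples. RAD57 had 0.093 on array 2, SMT3 had -0.11 on array 3 and MXR1, the gene after YEN1, had -0.23 on array 3. Chance gives about 1 in 20. None of the 8 joint molecule genes was among them. In YEN1, MMS4, SLX1, SGS1, TOP3 and RMI1 the gap between the pairs of arrays left too little range for 1 far array. Nothing is read from their absence.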

How the results depend on the processing

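No paired analysis was possible because each array already holds both strains and the labels form 1 group. The number of features called, 200, stayed within 1.5 times with no centring, equal spread, robust eBayes, array weights, at least 1.5-fold and single probes. It was 98 with quantile normalization, 302 with the even arrays' signs turned, 2021 with the term for the pairs of arrays, 2 at an adjusted p below 0.01, and 0 to 22 with 1 array left out. For the 7 lists together the count was 0 except with the signs turned (10) and with the pair term (17), and it was 0 with any 1 array left out. With the signs turned the lists had 2 (strand exchange), 5 (meiotic crossovers), 2 (cell cycle), 1 (SUMO and ubiquitin) and 0 in the others, and with the pair term 3, 4, 3 and 4 in that order, 1 for the mitochondrial resolvase and topoisomerases, 2 for Smc5/6 and 0 for the nucleases. With the signs turned the mean of YEN1 was 0.49, that of MUS81 -0.11, of MMS4 -0.60, of SLX4 -0.082, of RMI1 -1.22, of SGS1 -0.82, of SLX1 -0.67 and of TOP3 -0.46. The last 4 moved by less than their SD, which itself holds the split between the pairs. With 1 array left out the means lay between -1.75 and -1.37 for YEN1, 0.09 and 0.21 for MUS81, 0.10 and 0.56 for MMS4, -0.39 and 0.20 for SLX1, 0.03 and 0.11 for SLX4, -0.25 and 0.36 for SGS1, -0.21 and 0.24 for TOP3, and -0.41 and 0.53 for RMI1. No other setting moved the mean of a member by its SD or more. For several settings this was fixed by arithmetic. Leaving out 1 array, taking 1 pair alone or taking the median cannot move a mean of 4 values by its SD. Nothing is read from those settings. The cause of the changes between settings was not tested. The number of arrays limits the precision, and no signal over background came with the ratios.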
